A study of Mus musculus with 29 samples.

Results

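The aortic arch of 9 male ApoE KO mice infused with angiotensin II (AngII) and given vehicle, here called the model, was compared with that of wild-type (WT) mice, in 10 libraries, across all measurable genes. Genes were chosen by level alone: the authors' value had to reach 1 in at least 9 of the 29 libraries of the series, which left 13510 of 51456 gene symbols. All mice were C57BL/6 males on chow, 14 weeks old per the labels. The ApoE KO mice carried a pump with AngII at 15.27 mg/mL, delivered at 0.11 µL/hr, and WT mice a pump with vehicle. Both groups then had weekly vehicle injections for 4 weeks, as the control arm of a test of a sclerostin antibody, whose 10 libraries entered the fit only to estimate the spread. The gene deletion and AngII differ together, so their effects cannot be told apart. The protocol lists 9 WT mice against 10 WT libraries, so n counts libraries in WT, and 6 vehicle-treated ApoE KO mice died early, mainly of aortic rupture, so the model libraries come from survivors.

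Apolipoprotein E clears lipoprotein remnants from blood, and mice without it have high plasma cholesterol. AngII is a vasoconstrictor hormone that raises blood pressure, and in such mice its infusion drives atherosclerosis and aortic aneurysm. In the diseased wall, macrophages take up lipid and become foam cells, and smooth muscle cells can lose contractile proteins and make matrix. Long non-coding RNAs are transcripts with no known protein, some of which are the precursors of microRNAs, short RNAs that repress messenger RNAs through a seed near their 5′ end.

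Each library gave 1 value per gene, scaled by gene length as FPKM is. Over these 19 libraries, 34.7 to 43.7 fragments stood behind a value of 1 where the gene was 2 kb long, and 12558 to 13298 genes reached 1. Differences are model minus WT on log2(value + 1), tested with limma, and a gene is said to have risen, fallen or been called where its Benjamini-Hochberg adjusted p was under 0.05. A fold is the model over WT on that scale, which understates the change of low genes. Values of a gene are given as the lowest, the median and the highest over the libraries of a group.

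Of the 13510 genes, 7255 (53.7%) changed: 3065 (22.7%) rose and 4190 (31%) fell. Rises were fewer, yet more of them were large. At least 2-fold rises were found for 650 genes (4.81%) and at least 2-fold falls for 183 (1.35%), and the median size of a called change was 1.32-fold. Every model library lay above every WT library for 1055 genes (7.81%) and below every one for 1221 (9.04%). The balance of small changes rested on the scaling: 42.2% of calls were rises as deposited, 53.9% after TMM scaling and 51.1% after trends with GC content and length were removed.

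**Figure D1:**
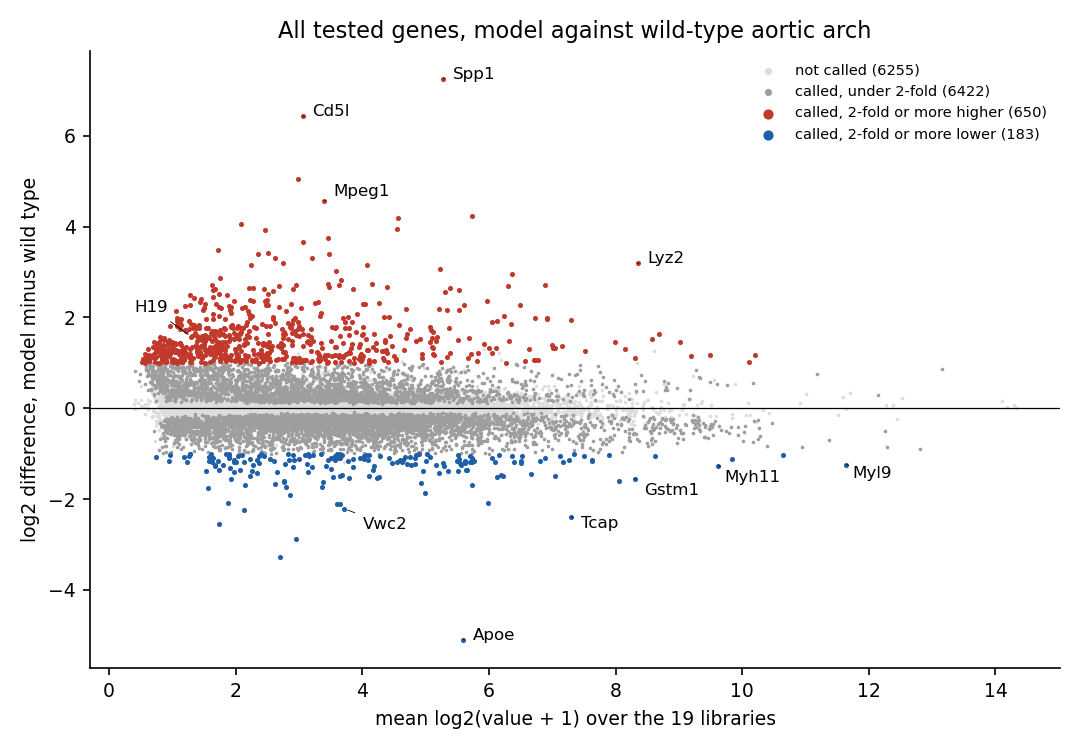
Log2 difference between the model and WT (vertical axis) against the mean log2(value + 1) over the 19 libraries (horizontal axis) for the 13510 tested genes, 1 point per gene. Red points are the 650 genes that rose and blue points the 183 that fell by at least 2-fold. The rises reach further than the falls, of which Apoe is the largest.

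Apoe checked the labels. It was at 3.32, 7.08 and 9.23 in the model and at 146, 284 and 363 in WT (0.0292-fold, log2 -5.10, SE 0.18, limma adjusted p = 1.37e-18), and the groups did not overlap. Of the at least 2-fold falls, 139 were in protein-coding genes and 31 in long non-coding genes, and the coding falls are described first.

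The falls with the largest moderated t outside Apoe separated the model from WT in every library. Vwc2 (GRCm38 chromosome 11, 11114223 to 11268931), which encodes a secreted antagonist of bone morphogenetic proteins, was at 2.84, 4.85 and 7.37 in the model and 18.8, 25.9 and 35.6 in WT (0.217-fold, log2 -2.21, SE 0.13, limma adjusted p = 1.11e-13). Rab17, a small GTPase of membrane traffic, was at 0.225, 0.871 and 1.19 against 5.29, 6.19 and 7.63 (0.235-fold, log2 -2.09, SE 0.11, limma adjusted p = 1.72e-14). All 10 WT libraries were above all 9 model libraries for both. Bex4, an X-linked gene of the brain-expressed family, was at 1.89, 2.98 and 3.61 against 10.2, 12.1 and 16.5, 0.268-fold. Gstm1, a glutathione transferase that conjugates reactive compounds, was at 125, 186 and 210.2 against 478, 532 and 559.8, 0.341-fold (limma adjusted p = 1.67e-13). Atp1b2, a subunit of the sodium-potassium pump, was at 17.8, 21.2 and 25.1 against 52.2, 55.8 and 66.6, 0.375-fold. The same separation held for Bves, a cAMP-binding membrane protein of muscle (0.353-fold), and for Rnf167, a ubiquitin ligase (0.543-fold).

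Secreted factors and their receptors were among the falls. Bmp3, a member of the bone morphogenetic protein family, was at 2.01, 2.78 and 4.19 in the model and 8.47, 10.1 and 12.7 in WT (0.328-fold). Lrrc17, a secreted leucine-rich repeat protein, was at 21, 27.8 and 34.9 against 57.4, 91.8 and 135 (0.31-fold). Neither overlapped between groups. Igf2, a fetal growth factor, was at 1.47, 1.78 and 3.46 against 4.56, 5.83 and 7.26 (0.461-fold, log2 -1.12, SE 0.13, limma adjusted p = 5.62e-08), while Igf1 rose 4.03-fold, from 5.39, 9.51 and 12 in WT to 29.7, 40.6 and 68.4. The neurotrophins went in different directions. Ntf3, which encodes neurotrophin 3, was at 9.46, 19.7 and 29 in the model against 38.4, 49.6 and 60.0 in WT (0.385-fold, log2 -1.38, SE 0.16, limma adjusted p = 2.85e-08), and Ntrk3, its receptor, at 22.8, 30.3 and 37 against 67.1, 75.5 and 95.3 (0.387-fold, log2 -1.37, SE 0.13, limma adjusted p = 1.64e-09). No library of the model overlapped with WT for Ntf3 and Ntrk3. Bdnf rose 1.51-fold, with overlap, and missed the threshold without model library 5 (limma adjusted p = 0.0565) or 8 (0.0508). Over the 29 secreted growth factors tested, 18 rose and 2 fell, where 22.7% of all genes rose and 31% fell. Their median log2 difference was 0.54 against -0.04 over all genes.

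**Figure D2:**
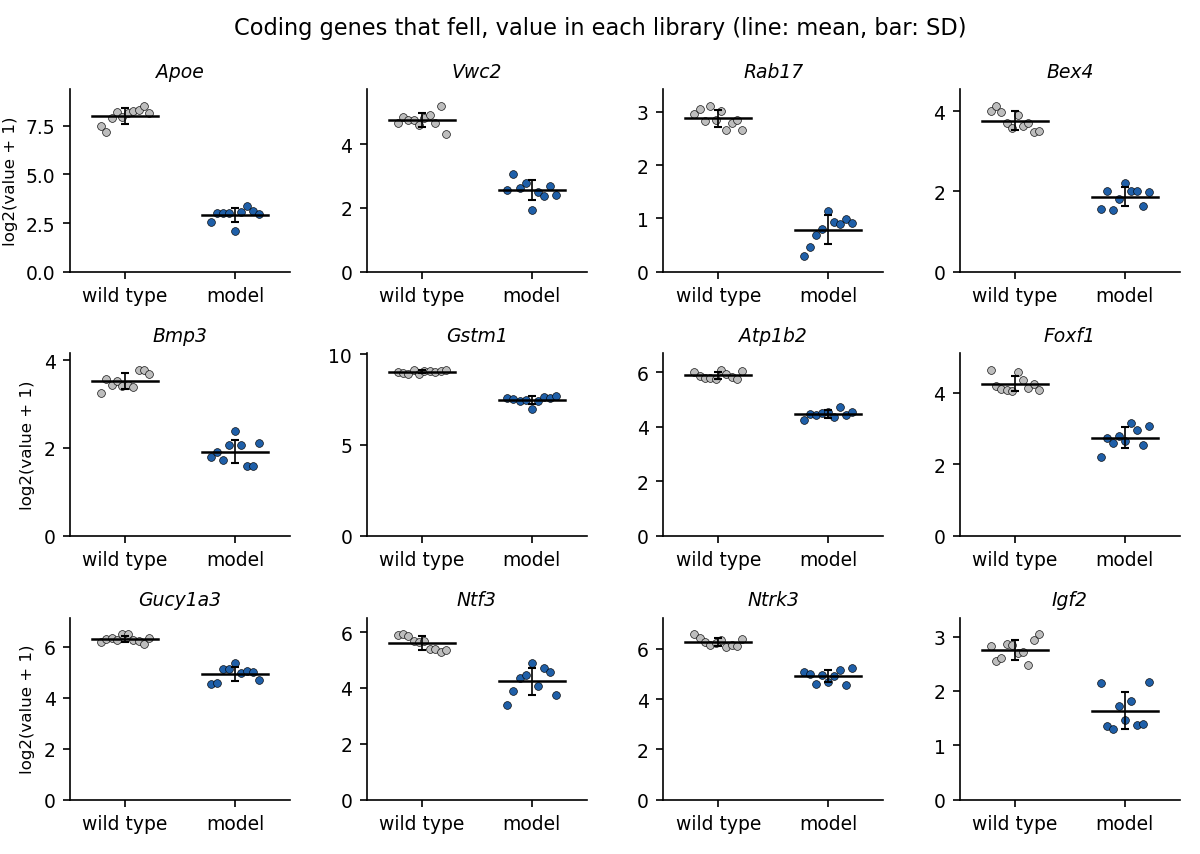
Log2(value + 1) (vertical axis) in each of the 10 WT libraries (grey) and 9 model libraries (blue) for 12 protein-coding genes that fell, 1 panel per gene. Lines are means and bars are SD, and in each panel every model library lies below every WT library.

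Contractile genes gave the falls of greatest value, meaning the difference of group means before logs. Myh11, the smooth muscle myosin heavy chain, was at 274, 508 and 652 in the model and 1096, 1197 and 1296 in WT (0.415-fold, log2 -1.27, SE 0.15, limma adjusted p = 3.69e-08). Myl9, a myosin light chain, was at 977, 2076 and 2890.3 against 4492, 4672 and 5449.8 (0.424-fold), and Flna, which crosslinks actin, at 361, 615 and 799 against 1257, 1315 and 1435 (0.459-fold). These 3 genes did not overlap between groups. Acta2, smooth muscle actin, fell to 0.534-fold and Tagln to 0.707-fold, both with overlap. Tpm2, Actg2, Lmod1 and Smtn also fell, by log2 -1.04, -1.14, -1.15 and -1.06. Of the 12 smooth muscle marker genes 11 fell and none rose, where 31% of all genes fell and 22.7% rose. Their summed value was 5075 to 17024 in the model and 17621 to 21139 in WT. In bulk tissue, fewer cells of a type and less RNA per cell cannot be told apart.

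The coding falls also held single genes of other kinds. Cbs, which makes cystathionine and hydrogen sulfide, was at 0.203, 0.779 and 1.13 in the model and 2.5, 3.53 and 5.38 in WT (0.382-fold). Hspb6, a small heat shock protein of muscle, was at 43.7, 76.9 and 94.2 against 179.5, 214 and 258 (0.358-fold). Both separated the groups. Tppp3, which promotes tubulin assembly, was at 22.9, 39.9 and 66.1 against 99.9, 109 and 138 (0.349-fold), and Gpsm2, which orients the mitotic spindle, at 6.96, 9.23 and 16.8 against 18.2, 31.6 and 38.8 (0.347-fold). Adam33, a membrane metalloprotease, was at 5.04, 9.17 and 14.6 against 23.1, 25.8 and 32.9 (0.354-fold), and Optc, a small leucine-rich proteoglycan, at 11.1, 26.2 and 34 against 53.2, 63.1 and 86 (0.386-fold). Gria1, a glutamate receptor subunit, was at 0.0186, 0.121 and 0.237 against 0.931, 1.45 and 1.63 (0.477-fold). These 5 genes did not overlap either. Cldn22, a claudin, was at 0, 0 and 2.6 against 3.63, 5.67 and 15.2, with a listed 0 in 5 of 9 model libraries. Of 22 actin, tubulin and calcium-binding cytoskeletal genes 8 (36.4%) rose and 2 (9.09%) fell, where 22.7% of all genes rose and 31% fell. Their median log2 difference was 0.13.

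Transcription factors and signalling genes of smooth muscle fell with smaller changes. Of 17 smooth muscle transcription factors and cofactors 11 fell and 1 rose, with a median log2 difference of -0.47. Srf, serum response factor, was at 12.5, 16.9 and 22.8 in the model against 25.2, 29 and 32.8 in WT (0.617-fold), and Foxf1, a forkhead factor of mesenchyme, at 3.58, 5.6 and 7.92 against 15.6, 16.9 and 23.8 (0.353-fold), both without overlap. Of 24 ion channel and calcium handling genes 15 fell and 2 rose. Kcnab1, a potassium channel subunit, was at 25.7, 35 and 45.9 against 61, 72.7 and 91.7 (0.472-fold), without overlap. The call shares in both lists lay above the 31% of all genes that fell.

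The nitric oxide pathway, in which guanylate cyclase makes cGMP and phosphodiesterases break it down, included falls at both steps. Gucy1a3, the alpha subunit of the cyclase, was at 21.9, 31.2 and 39.5 in the model against 68.2, 77.2 and 88.8 in WT (0.387-fold, log2 -1.37, SE 0.10, limma adjusted p = 6.38e-12), with no overlap. Pde5a, the cGMP phosphodiesterase, was at 22.4, 28.8 and 33.6 against 46.5, 50.4 and 65.8 (0.559-fold), while Pde1b was at 3.63, 4.83 and 6.58 against 1.84, 2.16 and 2.71 and rose 1.87-fold. Of the 18 cyclic nucleotide genes 9 (50%) fell, against 31% of all genes, and 4 (22.2%) rose, near the 22.7% of all. Among 31 vasoactive receptors 9 (29%) rose and 4 (12.9%) fell, so their share of rises was near the 22.7% of all genes. Adra1d, an alpha-1 adrenergic receptor, was at 4.31, 7.31 and 9.66 against 10.0, 16.4 and 22 (0.456-fold), and Htr2b, a serotonin receptor, at 0.812, 1.9 and 3.54 against 0.024, 0.233 and 0.329, a rise of 2.42-fold.

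The clock output factors Dbp and Hlf, which bind DNA at D-box sites, fell in libraries that spread widely. Dbp was at 7.97, 37.7 and 109.5 in the model and 28, 171 and 333 in WT (0.234-fold, log2 -2.09, SE 0.50, limma adjusted p = 0.000818), and Hlf at 1.13, 2.11 and 5.83 against 3.39, 10.2 and 20.4 (0.316-fold). Both overlapped between groups. Per3 fell to 0.41-fold and Nr1d1 to 0.481-fold, also with overlap, and Cry2 to 0.601-fold without. Of 20 clock and clock output genes 9 (45%) fell and 3 (15%) rose, and 8 fell and 1 rose under the exact Wilcoxon test, against 31% and 22.7% of all genes. The hour of collection is not given in the sources used here. Of the immediate early genes, which respond within minutes to stimuli, Fos (0.352-fold) and Nr4a1 (0.276-fold) fell, also with overlap. Egr2, of the same class, rose at least 2-fold, and the class was not counted as a whole. Tcap, a protein of the sarcomere, was at 16.2, 83.1 and 146 against 137, 385 and 607 (0.19-fold), and its neighbour Ppp1r1b, a phosphatase inhibitor, fell to 0.231-fold. The 12 listed heart muscle markers summed to 39.8 to 569 in the model and 38.3 to 553 in WT, and of the 11 tested 1 fell and none rose.

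Some at least 2-fold falls lay side by side. Of the 174 such genes with a position, 24 (13.8%) had another within 100 kb, in 15 pairs. Of the 647 placed 2-fold rises, 180 (27.8%) had one. A larger set has more possible neighbours, and no share for other gene sets of equal size was computed, so neither share is sized against a background. Ppp1r1b and Tcap lie 26015 bp apart on chromosome 11. Slc1a5, the glutamine transporter, and Dact3, a Wnt pathway regulator, lie on chromosome 7 with the long non-coding gene 9330104G04Rik between them, which lies 431 bp from Dact3. Foxf1 and the long non-coding gene Fendrr lie 1276 bp apart on chromosome 8. Hoxa3 overlaps Hoxaas2, and Bcam, a laminin receptor, lies 56943 bp from Apoe and was at 65.3, 149 and 232 in the model against 405, 453 and 512 in WT (0.33-fold, log2 -1.60, SE 0.18, limma adjusted p = 1.82e-08). Bcam thus lies beside the deleted gene, and whether the falls are linked was not tested.

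Most cytosolic ribosomal protein genes fell by small steps. Of 80 cytosolic ribosomal protein genes 71 fell and none rose, with a median log2 difference of -0.40. For 44 of the 80 every model library lay below every WT library, which held for 9.04% of all tested genes. The largest fall was Rpl21, at 249, 289.9 and 364 in the model against 431, 489.6 and 601 in WT (0.603-fold). In each of the 9 model libraries the median difference of the family from the WT mean lay below that of every WT library. It was -0.56 to -0.19 in the model and -0.13 to 0.16 in WT. WT libraries 20 and 21 had the highest medians of WT here and among long non-coding genes. Whether the falls of these gene groups are linked was not tested. Under TMM scaling 68 fell and 1 rose, and with GC content and length trends removed 70 fell and 1 rose, so the direction did not turn. Of 78 mitochondrial ribosomal protein genes 19 fell and none rose, and 9 fell and 3 rose under TMM scaling. Their share of falls, 24.4%, was below the 31% of all genes. Among 327 Zfp zinc finger genes 122 (37.3%) fell and 26 rose. Of 16 homeobox Hox genes, which set position along the body axis, 12 fell and 1 rose, and Hoxb6 was at 2.62, 4.03 and 6.22 against 6.55, 8.76 and 11.3 (0.496-fold).

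**Figure D3:**
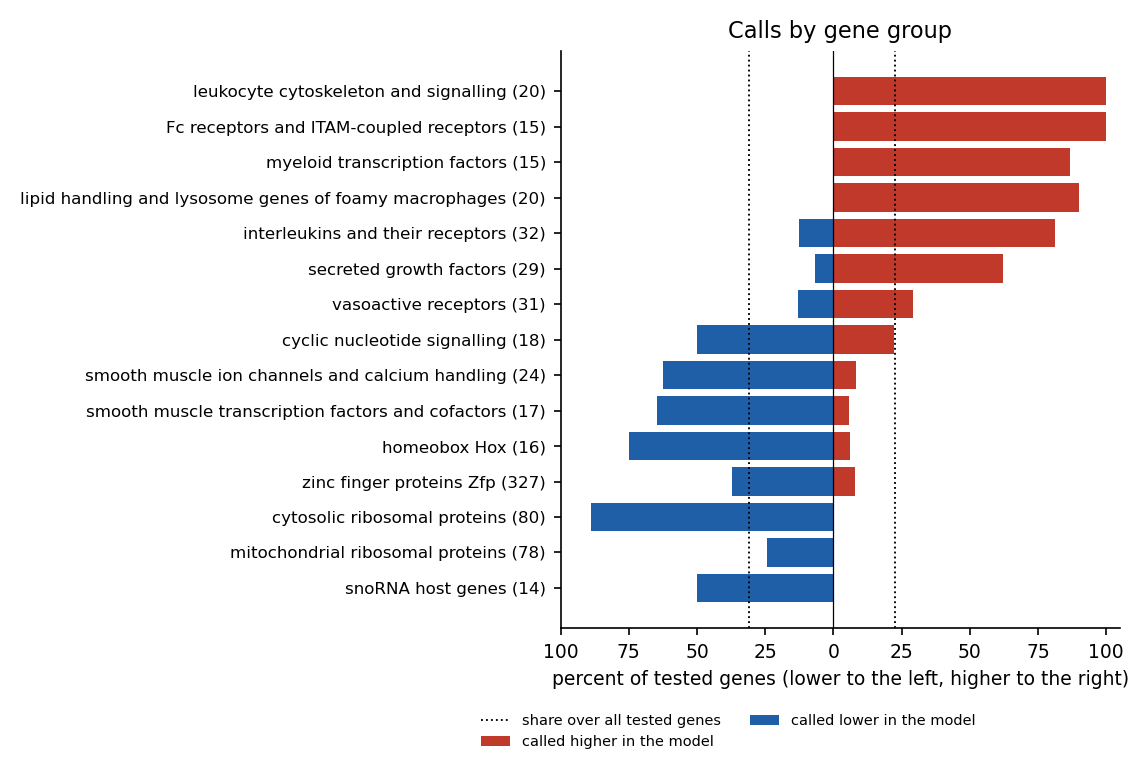
Percent of tested genes that fell (blue, to the left) and rose (red, to the right) in the model for 15 gene groups, with the number tested in parentheses. Dotted lines mark the shares over all genes, 31% fell and 22.7% rose. Leukocyte groups lie to the right and smooth muscle, Hox and ribosomal groups to the left.

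Leukocyte signalling and receptor genes rose. Of 20 leukocyte cytoskeleton and signalling genes 20 rose, of 15 Fc and ITAM-coupled receptor genes 15 rose, and 26 of 32 interleukins and their receptors did, against 22.7% of all genes. Syk, the kinase of ITAM receptors, was at 5.77, 8.26 and 9.91 in the model and 0.951, 1.44 and 2.26 in WT (3.59-fold, log2 1.84, SE 0.10, limma adjusted p = 1.38e-14). Pik3r5, a PI3 kinase subunit of leukocytes, was at 2.64, 3.98 and 4.83 against 0.243, 0.37 and 0.596 (3.41-fold), and Abcg1, a cholesterol exporter, at 7.32, 12.5 and 22.4 against 0.635, 1.01 and 1.54 (6.27-fold). Atp6v0d2, a proton pump subunit of osteoclasts and macrophages, was at 3.19, 16.9 and 52.1 against 0.04, 0.0898 and 0.306, 16.7-fold. None of these overlapped. The macrophage markers summed to 882 to 2743 in the model against 128 to 315 in WT, with 11 of 12 higher and none lower, and their part in these rises was not tested. Some rises spread widely over the model libraries: Igkc, an immunoglobulin light chain, was at 0.66, 11.7 and 222 against 0, 1.8 and 4.68, and Thbs4, a matrix glycoprotein, at 0.358, 3.13 and 33.3 against 0.111, 0.303 and 0.668. Across all tested genes the spread was larger in the model, with a median SD of log2 values of 0.199 against 0.139 in WT, and 76.3% of genes varied more in the model.

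Matrix and acute-phase genes gave some of the largest rises. Thbs1, thrombospondin 1, was at 66.6, 115 and 163 in the model and 3.34, 5.14 and 8.07 in WT (18.1-fold, log2 4.18, SE 0.28, limma adjusted p = 1.02e-12). Col8a1, a short-chain collagen of vessels, was at 31.3, 42.3 and 59.6 against 1.05, 2.28 and 4.04 (13.5-fold), and Cthrc1, a secreted protein of injured arteries, at 9.78, 21 and 44.2 against 0.345, 0.848 and 1.96 (10.7-fold). No library overlapped in these genes. Saa3, a serum amyloid, was at 1.17, 8.75 and 35.4 against 0, 0 and 0.283 (11.2-fold), and Lcn2, a protein that binds bacterial iron carriers, at 5.28, 28.5 and 53.4 against 0.183, 1.11 and 2.18 (9.88-fold). Both separated the groups as well. Gm45104, a gene model with no role known here, was among the rises with the largest moderated t, at 3.57, 4.81 and 5.97 against 0.0472, 0.148 and 0.287 (4.86-fold, log2 2.28, SE 0.10, limma adjusted p = 1.16e-16). Of 30 collagen genes 17 rose and 6 fell (19 and 2 with GC content and length trends removed). Of 13 glucocorticoid response genes 10 rose and 1 fell (8 and 1 with no filter). Their sums overlapped, at 795 to 5412 in the model and 622 to 3110 in WT, and 1 of the 13 separated the groups. Among all genes 22.7% rose and 31% fell. Beside these rises, 9 of 12 endothelial markers rose and none fell, with sums of 249.7 to 391.8 in the model against 150.5 to 272 in WT. Of 12 adipocyte markers 1 rose and none fell, with sums of 846 to 13615 against 488 to 3571. Their part was not tested.

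Among the long non-coding genes that passed the level filter the share that fell was higher than among coding genes, a difference described here with no test. Of 604 long non-coding genes 282 (46.7%) fell and 48 (7.95%) rose, with a median log2 difference of -0.24. Of 12283 protein-coding genes 30.5% fell and 24% rose, with a median of -0.03. Antisense genes (111 of 220) and lincRNAs, which lie between genes (90 of 213), both had high shares of falls. The median difference of the 604 genes from the WT mean was -0.31 to -0.17 over the model libraries and -0.08 to 0.14 over the WT libraries, so all 9 model libraries lay below every WT library. GC content moved with the calls in both classes: in coding genes 18.6% of the GC-poorest, 28.1% of the middle and 44.7% of the GC-richest fell, with bounds at 46.6% and 52.9% GC. Long non-coding genes in the same bins fell in 39.0%, 50.6% and 51.4%. With GC content and length trends removed 35.4% of long non-coding and 24.8% of coding genes fell, and after TMM scaling 39.1% and 23.5%. With no filter on level 9.27% of 4422 long non-coding genes fell and 4.32% rose. Of 18225 coding genes 20.1% fell and 18.7% rose, and both medians were near 0. Falls still outnumbered rises among long non-coding genes, but their share of falls was now below that of coding genes. The order by share of falls thus depends on the filter. Among genes that passed it, long non-coding genes fell more often than coding genes in each bin of mean level. The shares were 34.1% against 8.22% in the lowest bin and 47.8% against 37.7% in the highest. With values of at least 5 they were 56.9% against 33.8%. The nearest coding gene also fell beside 48.2% of the 280 long non-coding genes that fell and could be placed, and beside 26.4% of the 273 that were not called.

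**Figure D4:**
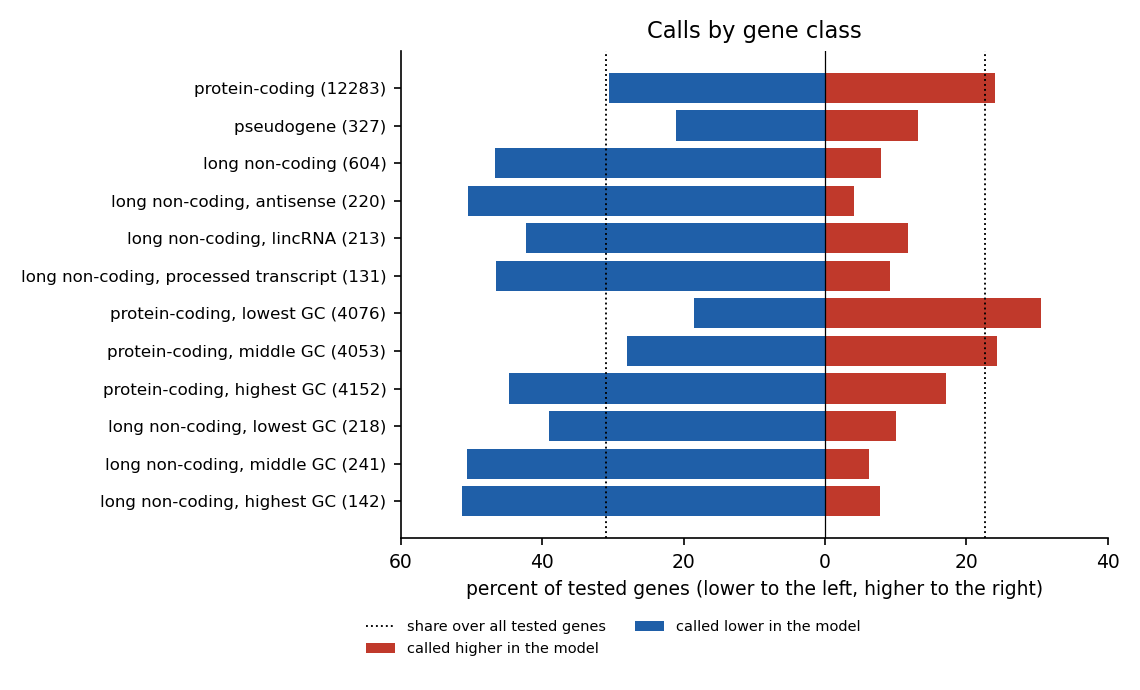
Percent of tested genes that fell (blue, to the left) and rose (red, to the right) by gene class and, for coding and long non-coding genes, by bin of GC content, with the number tested in parentheses. Dotted lines mark the shares over all genes. The share that fell was higher for long non-coding than for coding genes in each GC bin.

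Of the 10 largest long non-coding falls 7 were of genes on the strand opposite a coding gene, and some were listed at 0 in model libraries. The kit kept strand, but whether counting used it is not given in the sources used here, so reads of the 2 strands may not be told apart. Gm43126 (GRCm38 chromosome 6, 127122966 to 127126155), opposite Ccnd2, was listed at 0 in 6 of 9 model libraries and reached 12.4, against 8.88, 19.8 and 30.3 in WT. Gm43118, opposite Pitpnb, was listed at 0 in 4 model libraries, with 0, 1.21 and 16.5 against 7.08, 19.8 and 34.9. Gm37401, opposite Rhoa, was listed at 0 in 6 model and in 2 WT libraries. A listed 0 may be a failed estimate. Gm20659, opposite Dusp3 and near Sost, was at 5.52, 18.8 and 40.8 against 28.9, 49.7 and 86.5 (0.321-fold, log2 -1.64, SE 0.51, limma adjusted p = 0.00829), and Gm26776, opposite Ccdc3, at 3.31, 6.5 and 17 against 8.92, 20.6 and 65.1. The groups overlapped in all 5. Gm26776 missed the threshold without model library 1 or 4 or WT library 20, 21 or 24 (limma adjusted p = 0.0537 to 0.0619). Their coding partners Ccnd2 (log2 -0.037), Pitpnb (-0.12), Rhoa (0.029), Dusp3 (0.056) and Ccdc3 (-0.0064) were not called, though Pitpnb passed under the exact Wilcoxon test (adjusted p = 0.0126). Gm29331 had a log2 difference of -1.73 and Gm44709 of -1.63, and the coding genes opposite them, the adenylyl cyclase Adcy6 (-0.47) and the elongation factor Supt5 (-0.49), fell too. Over 6 of these genes, Gm44709 and the 5 whose partners were not called, WT libraries 20, 21 and 24 were always among the 4 highest of WT, and model library 7 was the highest of its group in 5. Gm44709 lost its call without any 1 of 8 libraries, among them WT 20, 21 and 24 and model 1 (limma adjusted p = 0.0577 to 0.0944).

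Others fell without overlap and at no 0. Gm830 was at 3.19, 4.38 and 5.62 in the model and 13.2, 17.2 and 20.6 in WT (0.3-fold, log2 -1.74, SE 0.11, limma adjusted p = 5.29e-13), and AI838599 at 0.821, 1.43 and 1.88 against 4.36, 6.42 and 10.3 (0.31-fold, log2 -1.69, SE 0.15, limma adjusted p = 1.81e-10). Fendrr, a long non-coding RNA needed for heart and body wall development, was at 0.366, 1.13 and 1.87 against 2, 3.84 and 6.3 (0.449-fold). Bvht, a non-coding RNA of heart commitment, fell to 0.357-fold. Snhg8, a host of small nucleolar RNAs, was at 22, 27.1 and 33.3 against 39.1, 43.6 and 54.1 (0.606-fold), and 7 of 14 such hosts (50%) fell and none rose, near the 46.7% of long non-coding genes that fell. Of 16 nuclear and imprinted long non-coding RNAs 10 (62.5%) fell and 2 rose, while Malat1 (log2 -0.37) and Meg3 (0.14) were not called. Under TMM scaling 7 of the 16 fell and 2 rose, where 39.1% of all long non-coding genes fell. Malat1 passed when the 19 libraries alone were fitted (limma adjusted p = 0.0148).

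**Figure D5:**
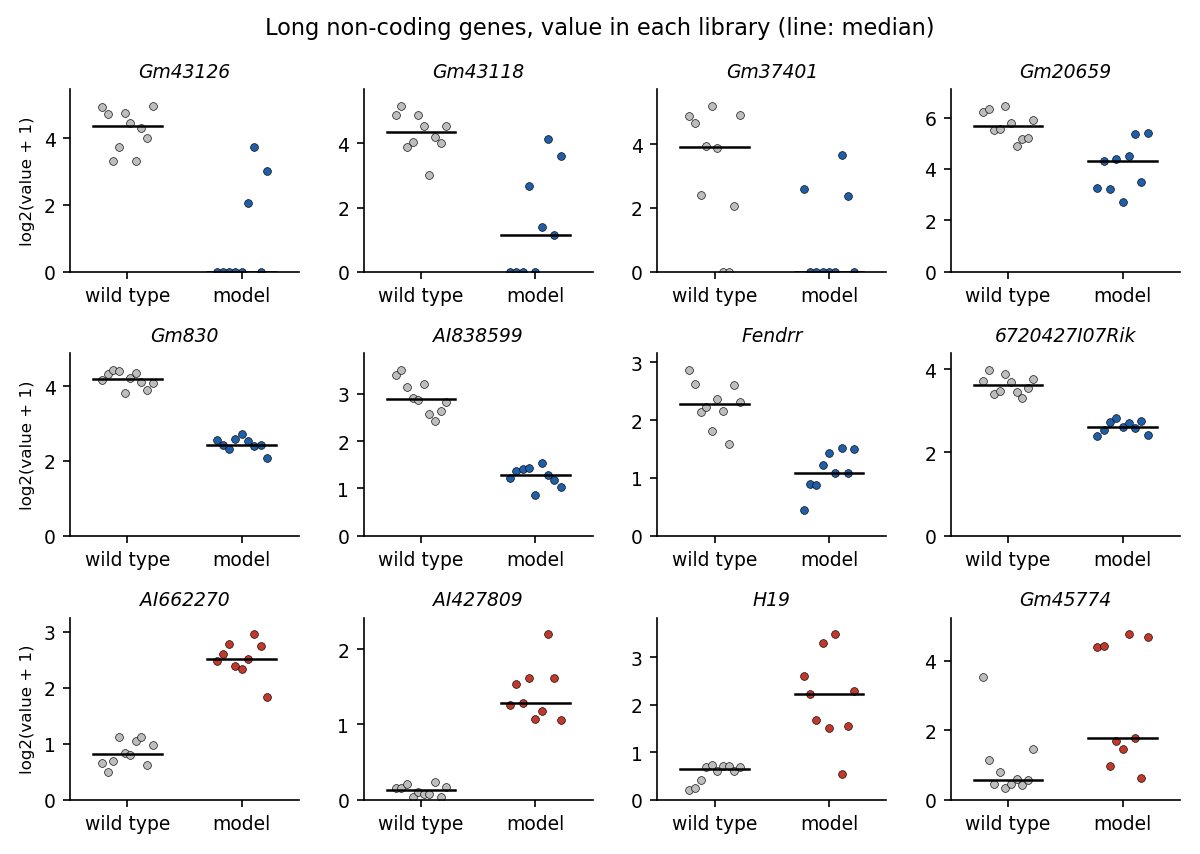
Log2(value + 1) (vertical axis) in each of the 10 WT libraries (grey) and 9 model libraries (blue for falls, red for rises) for 12 long non-coding genes, with lines at the medians. Several model libraries are listed at 0 for Gm43126, Gm43118 and Gm37401, while Gm830, AI838599, Fendrr, 6720427I07Rik, AI662270 and AI427809 do not overlap between groups.

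Rises of long non-coding genes were few. AI662270 was at 2.56, 4.67 and 6.75 in the model against 0.402, 0.762 and 1.18 in WT (3.19-fold, log2 1.67, SE 0.12, limma adjusted p = 7.63e-12), and AI427809, 101461 bp from the cholesterol exporter gene Abca1, at 1.09, 1.43 and 3.6 against 0.0225, 0.0919 and 0.175 (2.47-fold), both without overlap. H19, an imprinted RNA of fetal tissue, was at 0.457, 3.66 and 10.2 against 0.151, 0.566 and 0.656 (2.97-fold, log2 1.57, SE 0.48, limma adjusted p = 0.00704) with overlap, while its imprinted neighbour Igf2 fell. Gm45774, opposite the metallothionein gene Mt2, was at 0.534, 2.4 and 26.1 against 0.269, 0.489 and 10.4, and model libraries 1, 2, 6 and 9 stood apart at 20.1, 20.2, 26.1 and 24.4.

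Most transcripts that hold the let-7, miR-99/100 and miR-125 microRNAs fell. Of 18 hairpins of these families, 15 lay inside 7 tested genes, of which 5 fell and none rose. Among all genes 31% fell, and among long non-coding genes, to which several of these hosts belong, 46.7%. The families were grouped with results of these data known, so the count describes them and is no test. Hairpin and gene are on the same strand, except that no strand was at hand for 2610203C20Rik. The mature microRNAs were not measured: only the host transcripts were. Some of the mature sequences, from RefSeq on GRCm38.p6, are shown because they show hosts that share a seed, bases 2 to 8, in capitals.
mmu-let-7a-5p (chr13:48538239-48538260, - strand, in 6720427I07Rik): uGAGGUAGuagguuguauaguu
mmu-let-7f-5p (chr13:48537889-48537910, - strand, in 6720427I07Rik): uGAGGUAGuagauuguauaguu
mmu-let-7d-5p (chr13:48536078-48536099, - strand, in 6720427I07Rik): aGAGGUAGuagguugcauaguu
mmu-let-7c-5p (chr16:77599672-77599693, + strand, in Mir99ahg): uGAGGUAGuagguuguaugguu
mmu-miR-99a-5p (chr16:77598940-77598961, + strand, in Mir99ahg): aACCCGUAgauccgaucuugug
mmu-miR-100-5p (chr9:41531437-41531458, + strand, in 2610203C20Rik): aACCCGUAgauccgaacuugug
mmu-miR-125b-5p (chr9:41581940-41581961, + strand, in 2610203C20Rik): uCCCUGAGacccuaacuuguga
Host 2610203C20Rik, which holds let-7a-2, miR-100 and, in RefSeq, miR-125b-1 on chromosome 9, was at 25.6, 56.3 and 66.3 in the model against 81.7, 99.4 and 125 in WT (0.494-fold, log2 -1.02, SE 0.23, limma adjusted p = 0.000438). Host 6720427I07Rik, of let-7a-1, let-7f-1 and let-7d on chromosome 13, was at 4.28, 5.15 and 6.05 against 8.95, 11.3 and 14.8 (0.5-fold, log2 -1, SE 0.17, limma adjusted p = 1.27e-05). Neither overlapped. Host Mir99ahg, of miR-99a, let-7c-1 and miR-125b-2 on chromosome 16, was at 3.83, 5.37 and 6.57 against 6.58, 7.8 and 9.27 (0.712-fold), also without overlap. The coding hosts Spaca6, of miR-99b, let-7e and miR-125a (0.592-fold), and Wdr82, of let-7g (0.82-fold), fell too, and Huwe1, of let-7f-2 and miR-98, was not called (0.933-fold), nor was Gm28119, a gene model over miR-125b-1. The 4 let-7 sequences share the seed GAGGUAG, and miR-99a and miR-100 share ACCCGUA.

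Other hosts moved in both directions. Dleu2, host of miR-15a and miR-16-1, fell to 0.689-fold and Mir17hg to 0.678-fold. AA467197, host of miR-147, was at 2.54, 6.87 and 16.4 in the model against 0.0694, 0.314 and 0.945 in WT, 6.2-fold higher and without overlap. Mir142hg, a host expressed in blood cells, rose 1.84-fold and Vmp1, over miR-21a, 1.58-fold, both with overlap. The microRNAs of Mir17hg and the other mature forms of the hairpins below are not shown. For the other hosts a mature form of each hairpin is printed with the seed in capitals. The seeds printed here differ from those printed for the let-7 group.
mmu-miR-15a-5p (chr14:61632075-61632096, - strand, in Dleu2): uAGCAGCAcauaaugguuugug
mmu-miR-16-5p (chr14:61631936-61631957, - strand, in Dleu2): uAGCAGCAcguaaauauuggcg
mmu-miR-147-5p (chr2:122640814-122640837, + strand, in AA467197): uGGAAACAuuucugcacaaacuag
mmu-miR-142a-3p (chr11:87756903-87756925, + strand, in Mir142hg): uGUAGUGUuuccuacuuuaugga
mmu-miR-21a-5p (chr11:86584120-86584141, - strand, in Vmp1): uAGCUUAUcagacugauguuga

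Short words in the 250 bases before the start of 9603 tested coding genes were counted on both strands, with 455 of the genes at least 2-fold higher and 94 at least 2-fold lower. The CArG box, the core to which serum response factor binds, was in 5 of the 94 fallers (5.32%), 1.32% of the risers and 1.42% of all. The 5 were Fbxl22, Igf2, Ints6l, Myl9 and Myom1. GAGGAAGT, the core of PU.1 sites, was in 7.47% of risers, 2.13% of fallers and 2.93% of all, and AGAGGAAG, which overlaps it, in 10.3%, 3.19% and 4.61%. TGACTCA, an AP-1 site, was in 9.45% of risers, 1.06% of fallers and 4.11% of all, and 2 copies of GAAA with 2 bases between, the core of interferon response elements, in 8.13%, 4.26% and 3.19%. GGGCGG was in 40.7% of risers, 59.6% of fallers and 64.1% of all. TATAAA was in 15.8% of risers, 11.7% of fallers and 7.99% of all, and TTATGNAA in 4.84%, 1.06% and 2.28%. CACGTG was in 6.59% of risers, 8.51% of fallers and 9.75% of all, and TGACGTCA in 2.20%, 2.13% and 3.00%. GGGA and TCC with 4 bases between were in 3.52% of risers, 2.13% of fallers and 4.46% of all. These counts describe letters, were not tested and give no binding. Members of a gene family were counted separately. Among the risers these were Bcl2a1a, Bcl2a1b and Bcl2a1d with GAGGAAGT, and Ifi203, Ifi205, Ifi207 and Ifi211 with the interferon core, beside others. The stretches below, from RefSeq on GRCm38.p6, show the word in capitals in a fallen contractile gene and in 3 genes that rose, each 5′ to 3′ on the strand of the gene.
Myl9, CArG box (chr2:156775263-156775362, + strand): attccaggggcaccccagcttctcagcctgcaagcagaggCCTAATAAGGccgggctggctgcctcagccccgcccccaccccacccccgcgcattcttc
Spp1, GAGGAAGT (chr5:104434958-104435057, + strand): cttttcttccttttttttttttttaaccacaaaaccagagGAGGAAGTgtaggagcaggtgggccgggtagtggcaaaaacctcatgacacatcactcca
Vav1, GAGGAAGT (chr17:57279000-57279099, + strand): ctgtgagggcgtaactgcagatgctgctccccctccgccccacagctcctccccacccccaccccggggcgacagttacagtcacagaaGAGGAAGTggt
C1qc, GAGGAAGT (chr4:136893050-136893149, - strand): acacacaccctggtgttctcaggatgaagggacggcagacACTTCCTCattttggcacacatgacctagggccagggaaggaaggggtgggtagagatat
Myl9 fell, as given above, and Spp1, C1qc and Vav1, which encode osteopontin, a complement chain and a leukocyte exchange factor, rose 153-fold, 3.76-fold and 3.39-fold. In C1qc the word lies on the opposite strand, so its reverse complement is in capitals.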

How the data were processed

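RNA was sequenced from the aortic arch in 29 stranded mRNA libraries (per the labels' protocols, at least 80 ng of RNA with an integrity number of at least 7). The authors deposited 1 FPKM-like value per gene symbol, named FPKQ per the file headers. Its 85th percentile over genes was near 7 in every library, and it was handled as a value already scaled between libraries; the unit is not spelled out. GRCm38 and DESeq2 1.10.1 are in the submitters' processing notes with no role; the sources used here give no aligner, counting method or use of strand. Total depth is unknown.

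The test was limma 3.58.1 (R 4.3.3; trend and robust options) on log2(value + 1), over all 29 libraries and with no covariate. Nothing says that the WT libraries came from separate mice, so p-values there measure the spread between libraries. When 13510 genes were simulated, 50 of them were changed by each size. The shares recovered at 1.25, 1.5, 2 and 4-fold were 48, 82, 94 and 100%, and 6.36% of calls were false. Far more genes were called in the data (53.7%), and recovery at that share was not tested. GENCODE M21, on GRCm38, matched 45889 of 51456 symbols, and RefSeq gave a type to 1268 more. Of 76 microRNA genes in 51 hosts, 62 had a mature sequence in RefSeq.

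Genes were named by rule: the largest rises and falls among coding and long non-coding genes, by log2 difference, value and moderated t, the smallest p in each list, neighbours among the 2-fold falls, the largest spreads, and microRNA hosts. The members and lists were chosen with earlier results of these data known. Actg2, Adcy6, Bdnf, Bvht, Cbs, Ccdc3, Ccnd2, Dusp3, Gria1, Hoxb6, Huwe1, Malat1, Meg3, Ntf3, Optc, Per3, Pitpnb, Rhoa, Rpl21, Sost, Spaca6, Supt5, Vav1 and Wdr82 were chosen after their values were seen, as were the promoters and the 6 opposite-strand genes ranked by library. Alternatives changed the scaling, filter, pseudocount, test, weights and libraries. Some genes are not reported here.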

Additional observations from a re-analysis of the deposited data

Results flagged for a closer look

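Among 220 groups of libraries for the genes named, 20 values stood far from the rest of their group, where chance gives about 1 in 20 groups.

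Model library 1 held 10 of these, each the lowest of the model: Bcam at 65.3, Dact3 at 15.2, Hspb6 at 43.7, Lmod1 at 59.9, Myh11 at 274, Myl9 at 977, Optc at 11.1, Supt5 at 27.5, Tagln at 1870 and Tpm2 at 509. This library also had the lowest array weight of the model, 0.32. These are mostly muscle genes, and each kept its call without this library.

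Model library 5 was lowest for Gstm1 (125) and highest for Bves (2.96), library 7 was highest for AI427809 (3.6), and library 9 was lowest for Huwe1 (15.4) and highest for Meg3 (154). In WT, library 20 was highest for Gm45774 (10.4) and Pde5a (65.8), library 21 lowest for Igf1 (5.39), library 27 highest for Vav1 (0.923), and library 29 lowest for Actg2 (232).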

How the results depend on the processing

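Of the 110 genes named with values, 104 had the same direction and side of the threshold under each alternative that gave them a value. These were 28 alternatives, except that 93 of the genes passed the filter at 5. The other 6 were Bdnf, Gm26776, Gm44709, Huwe1, Malat1 and Pitpnb, and none of them changed direction. The count of at least 2-fold changes moved most: requiring the test itself to exceed 2-fold (limma treat) left 205 higher and 19 lower, and a pseudocount of 0.1 gave 1005 and 319. With values of at least 5, which leaves 9502 genes, 2000 were higher, 415 were at least 2-fold higher, and 15 long non-coding genes were higher and 87 lower. With no filter 191 long non-coding genes were higher and 410 lower, and the share of long non-coding genes that fell was below that of coding genes. Leaving out 1 library at a time gave 2895 to 3101 higher, 3931 to 4200 lower, 607 to 671 at least 2-fold higher, 144 to 203 at least 2-fold lower, and 43 to 50 long non-coding genes higher and 259 to 285 lower. The lowest counts of 2-fold changes came without model library 1. TMM scaling turned the balance of all calls from 42.2% to 53.9% rises, while the median of all genes moved from -0.04 to 0.03. No paired analysis was possible because the replicate numbers of the 2 groups do not overlap. Total counts are not known, so no interval for counting error is given, and values near 1 in short genes rest on few fragments.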
